A study of Mus musculus with 8 samples.

Results

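Serpins are a family of protease inhibitors, and 48 mouse serpin genes could be followed in the skin of Adam10 knockout and wild-type mice, of 19935 genes measured in all. A gene was taken as a serpin when its probe set carried exactly 1 gene symbol that starts with Serpin, a clade letter from a to i and a number. Where several probe sets stand for 1 gene, the one with the highest mean log2 intensity over the 8 arrays is kept, but each of the 48 serpins had a single probe set, so that step never acted and no difference between genotypes entered the rule. Of the 48, 24 belong to clade B and 24 to the other clades, 15 of these to clade A. Of the clade A members, Serpina4-ps1 is annotated as a transcribed pseudogene. The family and its split by clade were, however, picked on these same arrays: they were chosen from the log2 differences between knockout and wild type, with the changes of Serpinb11, Serpinb10 and Serpinb3a already known. The tests below come from that same contrast and describe the members; their counts are no independent support.

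A serpin presents a flexible loop to a protease, and when the protease cuts the loop the serpin folds around it and traps it in an inactive complex. Clade B serpins mostly lack a secretion signal and act inside cells, where several protect epithelial or immune cells from their own proteases, while most serpins of the other clades are secreted into blood or tissue fluid. A few members inhibit no protease, such as the collagen chaperone Serpinh1 and Serpinb5, also called maspin. In stratified epithelium, clade B serpins are known from keratinocytes, and human forms of some are linked to scaling or thickened skin.

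The samples were 4 from Adam10 knockout and 4 from wild-type mouse skin, each on its own Affymetrix Mouse Gene 1.0 array. Adam10 sits in the cell membrane and, as a protease, releases the outer parts of Notch receptors and other surface proteins. The labels speak both of skin and of primary skin cells, and title the knockouts cKO (often read as conditional knockout). They give neither the deleted exons, the Cre driver, the strain, the sex nor the age. The titles carry a P with a number, 67, 68, 69 and 55 in knockout arrays 1 to 4 and 57 to 60 in wild-type arrays 1 to 4, whose meaning they do not state. The labels do not say that each sample came from a separate animal, so p-values measure the spread between these samples.

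Adam10 itself had log2 intensities of 6.85, 7.00, 7.04 and 6.79 in the knockouts, against 7.39, 7.33, 7.06 and 7.34 in wild type. The groups did not overlap, with a difference of -0.36 (SE 0.11), an exact two-sided permutation p of 0.0286, the smallest that 70 assignments can give, and a limma adjusted p of 0.064. Keratinocyte markers were high on every array. The mean of 8 basal keratinocyte markers was 9.57 to 9.82 in the knockouts and 8.50 to 9.06 in wild type (log2 intensity). Of these 8, 7 were called higher in the knockout (limma, adjusted p under 0.05, beside 6.41% of all genes) and 0 lower, with a median difference of 0.72. The mean of 6 suprabasal markers, with 0 calls, reached 11.28 in the knockouts and 11.37 in wild type. Its lowest value, 10.92, was on wild-type array 4. The part of the basal markers in the serpin differences was not tested. Wild-type array 4 stood apart, and wild-type array 3 less so. The mean of 9 dermal fibroblast markers was 5.29 to 5.34 in the knockouts, against 5.18, 5.35, 6.96 and 9.19 on wild-type arrays 1 to 4. In such tissue samples, fewer cells of a type and less RNA per cell cannot be told apart. Arrays give no read depth, and the number of arrays limits the precision.

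Of the 48 serpins, 8 passed the test (limma, adjusted p under 0.05 over all 19935 genes), with 4 rises and 4 falls in the knockout. Over all genes 8.75% passed, 6.41% higher and 2.34% lower. In clade B 7 of 24 passed (29.2%), 3 higher and 4 lower, and in the other clades 1 of 24 passed (4.17%), which was higher. Clade B did not shift as a whole: its median difference was -0.01 on the log2 scale, knockout minus wild type, beside -0.04 in the other clades and 0.0027 over all genes. Its differences ran from -2.06 to 2.41, while those of the other clades ran from -1.08 to 0.73. The counts of the clades are given side by side and their difference was not tested, since the clade split was made with these values known.

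**Figure D1:**
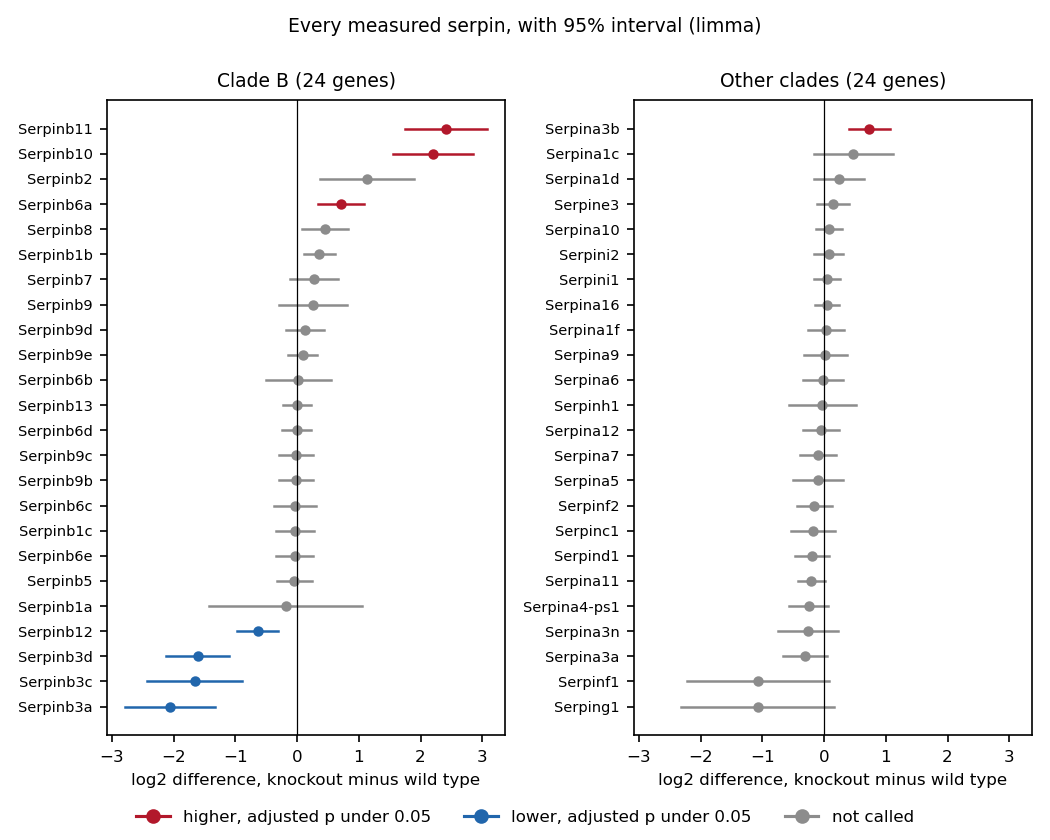
Log2 difference (knockout minus wild type, horizontal axis) of every measured serpin, with its 95% interval from limma, for the 24 genes of clade B on the left and the 24 genes of the other clades on the right. Serpinb11 (2.41) and Serpinb3a (-2.06) mark the ends of the clade B range, and Serpina3b (0.73) is the coloured point among the other clades.

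The calls were also set beside the signal of each serpin. On all 8 arrays 25 of the 48 lay below the array's median log2 intensity (3.73 to 3.82 in the knockouts, 3.82 to 3.92 in wild type), and 0 of these 25 passed in limma, where 1 had an unadjusted p under 0.05. That 1 was Serpinb1b. All 8 serpins that passed were among the 23 that reached the array median on 1 or more arrays, 14 of clade B and 9 of the other clades. Some reached it through 1 genotype alone, such as Serpinb3d through wild type. A member bright in 1 genotype could not be among the 25. Neither the share called among the 23 nor the 0 of 25 is therefore read as a result. Over all genes 8.75% passed, and the share among genes of such low signal was not taken. No detection calls were used, so a dim probe set is not shown to be silent.

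Among the members that rose, the steepest change was in Serpinb11, whose mouse protein inhibits trypsin-like proteases. Its log2 intensities were 6.56, 5.77, 6.12 and 5.47 in the knockouts, against 4.38, 3.48, 3.47 and 2.95 in wild type. Every knockout array was higher than every wild-type array, and wild-type arrays 2 to 4 lay below their array medians. The difference was 2.41 (SE 0.30, limma adjusted p = 0.0025), or 5.32-fold. On the scale of log2 of the value plus 16, which compresses dim values, it was 1.49. Serpinb10, also called bomapin and first described in human bone marrow, had 9.04, 8.61, 8.54 and 8.37 in the knockouts, against 7.32, 6.15, 6.56 and 5.73 in wild type. The groups again did not overlap, and the spread was wider in wild type, with an SD of 0.29 in the knockouts and 0.68 in wild type. The difference was 2.20 (SE 0.29, adjusted p = 0.0031), or 4.59-fold.

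Serpinb6a, an inhibitor of cathepsin G and trypsin-like proteases in cells, rose by a smaller amount. Its values were 8.26, 8.29, 8.27 and 7.90 in the knockouts, against 7.60, 7.11, 7.26 and 7.87 in wild type. Knockout array 4 lay below the other knockouts and barely above wild-type array 4, the highest wild-type value. The difference was 0.71 (SE 0.17, adjusted p = 0.029). This call was lost without knockout array 1, 2 or 3 or wild-type array 2 or 3 (highest adjusted p = 0.097), and after quantile normalization (adjusted p = 0.068) or cyclic loess (adjusted p = 0.10). Serpina3b, 1 of a run of mouse genes related to human antichymotrypsin, was the single member outside clade B that passed. It had 4.53, 4.50, 4.50 and 4.47 in the knockouts, against 4.13, 3.60, 3.94 and 3.40 in wild type. The knockout values lay close together (SD 0.03) while the wild-type values spread (SD 0.33), and the groups did not overlap. The difference was 0.73 (SE 0.15, adjusted p = 0.016), or 0.38 on the scale of log2 of the value plus 16. Without knockout array 2 the difference was still 0.73, but the call was lost (adjusted p = 0.058).

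The members that fell were the 3 measured Serpinb3 genes and Serpinb12. Serpinb3a, Serpinb3c and Serpinb3d are mouse relatives of the human squamous cell carcinoma antigens, which inhibit papain-like cathepsins and chymotrypsin-like serine proteases. Serpinb3a had 5.20, 5.02, 5.15 and 6.24 in the knockouts, against 8.21, 7.00, 7.71 and 6.93 in wild type, a difference of -2.06 (SE 0.33, adjusted p = 0.0058) or 4.17-fold. Serpinb3c had 6.67, 6.44, 6.44 and 7.94 in the knockouts, against 9.21, 8.32, 8.60 and 7.996 in wild type. Knockout array 4 lay just below the lowest wild-type value. The difference of Serpinb3c was -1.66 (SE 0.35, adjusted p = 0.018), which no longer passed when knockout array 1, 2 or 3 or wild-type array 3 was left out (highest adjusted p = 0.069). Serpinb3d had 3.08, 3.13, 2.82 and 3.56 in the knockouts, all below the array medians, against 5.45, 4.36, 4.67 and 4.55 in wild type. Its difference was -1.61 (SE 0.23, adjusted p = 0.0043), or -0.80 on the scale of log2 of the value plus 16, and the groups did not overlap.

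In all 3 Serpinb3 genes knockout array 4 was the highest knockout and wild-type array 1 the highest wild type. These genes are close copies of each other, and how far their probes take up each other's RNA is not known from the files, so the 3 falls may share signal and are not 3 separate observations. Serpinb3b, the remaining copy beside them, was not analysed here.

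Serpinb12, an intracellular inhibitor of trypsin-like proteases, had 9.30, 9.01, 8.91 and 9.21 in the knockouts, against 10.09, 9.66, 9.83 and 9.42 in wild type. Each knockout value was below each wild-type value, and the difference was -0.64 (SE 0.15, adjusted p = 0.027). The call was lost without knockout array 2 or 3 or wild-type array 2 or 3 (highest adjusted p = 0.092), and after centring each array on its median (adjusted p = 0.051). When wild-type arrays 3 and 4 were both left out, each of the 8 serpins still passed, where 4.64% of all genes did. Serpinb11 then differed by 2.05, Serpinb10 by 1.90, Serpinb3a by -2.20 and Serpinb12 by -0.76.

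**Figure D2:**
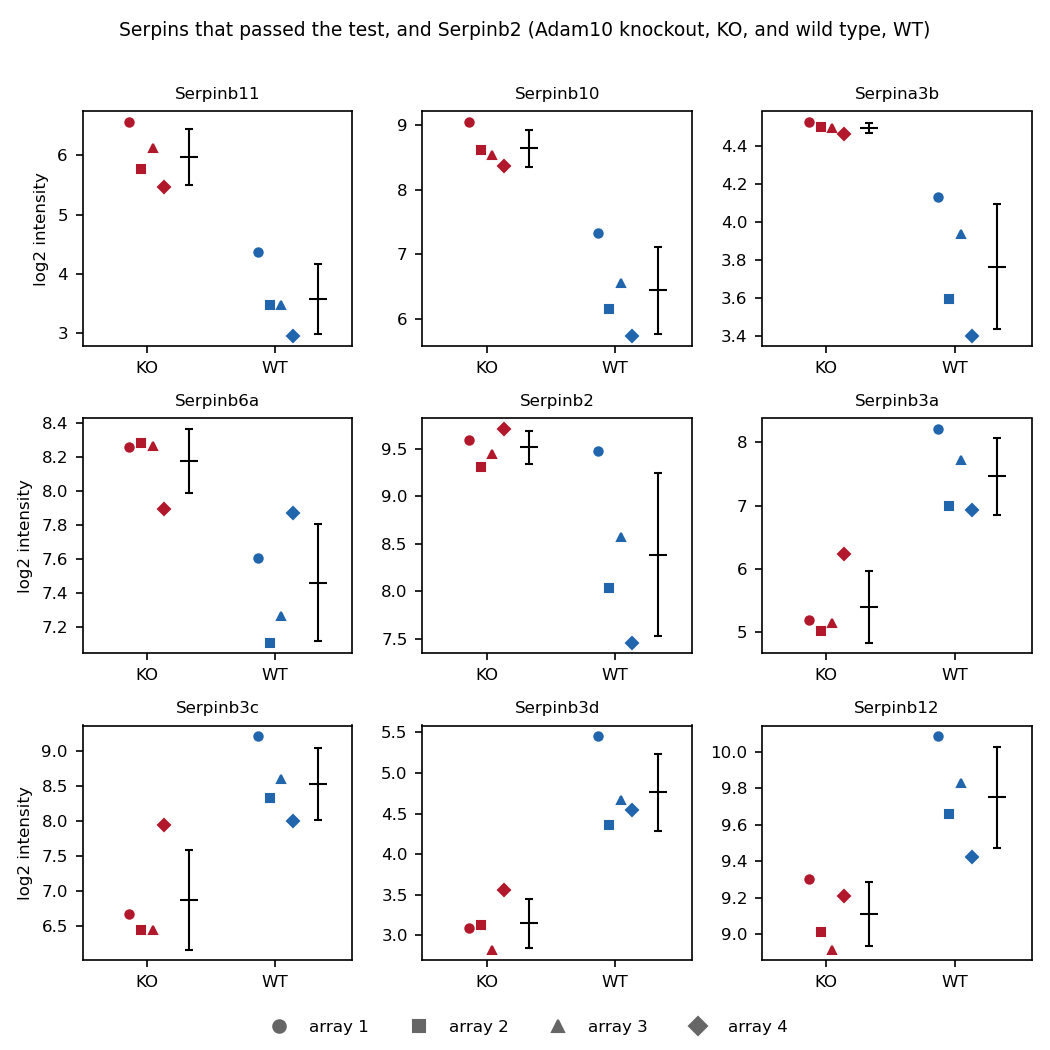
Log2 intensity of each array (vertical axis, own scale in each panel, not starting at 0) for the 8 serpins that passed and for Serpinb2, with knockout (KO) left of wild type (WT). Symbols number the arrays within a genotype, bars give the mean and SD (n = 4 each), and Serpinb2 is the panel in which wild-type array 1 (9.47) lies among the knockouts (9.31 to 9.70).

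Serpinb2 came closest to the threshold without passing it. It encodes plasminogen activator inhibitor type 2, which blocks urokinase and is made by keratinocytes and macrophages. Its values were 9.59, 9.31, 9.45 and 9.70 in the knockouts, against 9.47, 8.03, 8.57 and 7.46 in wild type. The knockouts lay close together, whereas wild-type array 1 reached the knockout range and wild-type array 4 was the lowest. The difference was 1.13 (95% interval 0.37 to 1.89, adjusted p = 0.069). Without wild-type array 1 it was 1.49 (limma adjusted p = 0.0077). Serpinb2 also passed with array weights (adjusted p = 0.020) and when genes below the median level were left out (adjusted p = 0.040). Under 15 of 20 alternatives it stayed uncalled. The difference was 0.82 (adjusted p = 0.079) without wild-type array 4 and 0.76 (adjusted p = 0.21) without wild-type arrays 3 and 4. With a trended and robust prior the adjusted p was 0.13.

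Of the 7 called clade B members, 6 lie together in the genome. By RefSeq (GRCm38.p6), clade B serpins lie in a run on chromosome 1 and in a run on chromosome 13. The chromosome 1 run, from Serpinb5 (chr1:106861175-106883348) to Serpinb8 (chr1:107589926-107608978), spans 748 kb and holds 12 coding genes, all serpins, of which 11 were measured. Of these 11, 2 rose and 4 fell (54.5% called, beside 8.75% of all genes), and their absolute differences had a median of 1.13 on the log2 scale. In the chromosome 13 run, from Serpinb1a to Serpinb6a, 1 of 13 passed, which was Serpinb6a, (7.69%), and the median absolute difference was 0.04. In the clade A run on chromosome 12, from Serpina10 to Serpina3n, 1 of 14 passed (7.14%) with a median absolute difference of 0.15, beside 0.16 over all genes. The shares on chromosomes 13 and 12 are near that of all genes. Of the 13 members on chromosome 13, 9 lay below the array median on every array, against 1 of 11 on chromosome 1, so the runs also differed in signal.

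Along chromosome 1 the falls and the rises lay in separate stretches. The 6 measured genes from Serpinb5 to Serpinb3c had differences of -0.05, -0.64, -0.01, -2.06, -1.61 and -1.66 in gene order, 4 of them calls. The 5 genes from Serpinb11 to Serpinb8 had differences of 2.41, 0.27, 1.13, 2.20 and 0.45, 2 of them calls. Serpinb3c and Serpinb11, which differed in opposite directions, are neighbours in this order, with 83.9 kb between them. The point of division was chosen after the values were seen and was not tested. Over all genes 6.41% were called higher and 2.34% lower. The 4 falls include the Serpinb3 copies, whose probes may share signal. Among non-serpin coding genes within 1 Mb of the run, 5 were measured, all on the Serpinb5 side. Of these, Vps4b, which encodes an ATPase of membrane remodelling, rose by 0.45 (adjusted p = 0.036) and Bcl2, which encodes an inhibitor of cell death, by 0.69 (adjusted p = 0.011). Zcchc2, Phlpp1 and Kdsr were not called (-0.11, 0.14 and -0.24).

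**Figure D3:**
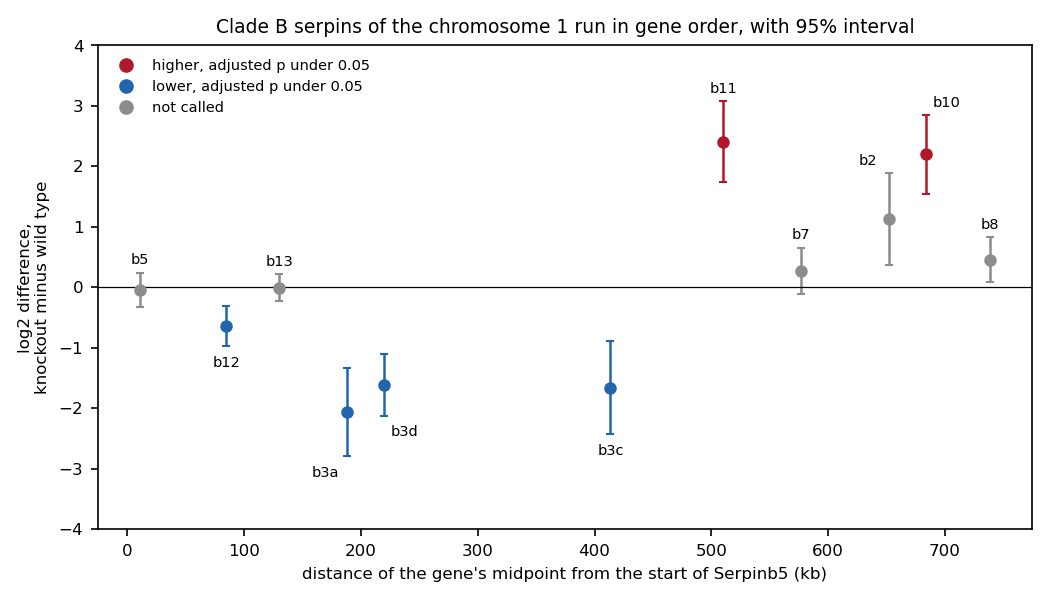
Log2 difference (knockout minus wild type) with its 95% interval for the 11 measured clade B serpins of the chromosome 1 run, placed by the distance of the midpoint of each gene from the start of Serpinb5 in kb (labels leave out the word Serpin). The 4 members that fell lie left of the 2 members that rose, and the differences of the 5 genes from Serpinb11 to Serpinb8 all lie above 0.

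Inside the chromosome 1 run, the brightest uncalled members covered keratinocyte serpins of several kinds. Serpinb5, or maspin, had 9.89, 9.73, 9.75 and 9.70 in the knockouts, against 10.09, 9.77, 9.89 and 9.49 in wild type. The groups overlapped fully, and the difference of -0.05 had a 95% interval of -0.33 to 0.24. Serpinb7, whose human gene is mutated in a palmoplantar keratosis, had 8.42, 8.26, 7.99 and 8.14 in the knockouts, against 8.41, 7.73, 8.01 and 7.59 in wild type, an overlap with a difference of 0.27 (interval -0.11 to 0.65). Serpinb8, whose human gene is mutated in a peeling skin disorder, had 8.16, 8.09, 7.94 and 8.27 in the knockouts, against 7.96, 7.66, 7.87 and 7.15 in wild type. Its difference was 0.45 (interval 0.08 to 0.83, adjusted p = 0.12), with wild-type array 1 inside the knockout range. Serpinb13, related to human headpin, was dim on every array, at 1.90 to 2.26 in the knockouts and 2.01 to 2.16 in wild type.

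Most members of this run shared their highest and lowest wild-type arrays. Wild-type array 1 was the highest wild type in 11 of the 11 members and wild-type array 4 the lowest in 10 of 11, in risers and fallers alike. The 11 include the dim Serpinb13 and the Serpinb3 copies, whose probes may share signal. Among the 23 serpins that reached the array median on 1 or more arrays, wild-type array 1 was highest in 14 and wild-type array 4 lowest in 12. Such counts were not taken over all genes. The mean of the suprabasal keratinocyte markers was also highest on wild-type array 1 (11.37) and lowest on wild-type array 4 (10.92), with wild-type arrays 2 and 3 at 11.16 and 11.27. That mean was then used as a covariate, an alternative chosen after the data were seen. All 8 serpins remained called, and Serpinb2 (1.15, limma adjusted p = 0.0086) and Serpinb8 (0.47, adjusted p = 0.014) passed as well. Calls over all genes also rose, to 2812 from 1744 without the covariate. The part of the suprabasal markers in the spread of these serpins was not tested. Of 7 markers of stressed keratinocytes 6 were called higher in the knockout (limma), beside 6.41% of all genes. Their means were 8.48 to 9.65 in the knockouts and 6.31 to 7.51 in wild type. The part of these markers in the serpin differences was not tested.

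The sequences before the starts of the genes that changed most in the chromosome 1 run are shown because neighbours there moved in opposite directions. Each is the 250 bases before the annotated start, from RefSeq on GRCm38.p6, 5′ to 3′ on the strand of the gene. Capitals mark TGANTCA, a looser form of the AP-1 site that allows any base in the middle, on either strand. They also mark TATAAA, the letters of the TATA box bound by the general transcription machinery, read on the strand of the gene only. The 3 genes that fell come first.
Serpinb3a (chr1:107052304-107052553, minus strand): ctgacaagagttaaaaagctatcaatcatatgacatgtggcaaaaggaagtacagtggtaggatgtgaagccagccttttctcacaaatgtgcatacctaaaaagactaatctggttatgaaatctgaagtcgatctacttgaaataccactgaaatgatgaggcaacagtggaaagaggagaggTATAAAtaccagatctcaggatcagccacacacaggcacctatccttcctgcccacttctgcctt
Serpinb3d (chr1:107083481-107083730, minus strand): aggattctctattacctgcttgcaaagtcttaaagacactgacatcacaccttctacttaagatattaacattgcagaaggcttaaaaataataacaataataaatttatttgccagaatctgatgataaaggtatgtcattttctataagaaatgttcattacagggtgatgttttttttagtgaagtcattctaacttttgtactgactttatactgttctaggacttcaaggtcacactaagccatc
Serpinb3c (chr1:107278372-107278621, minus strand): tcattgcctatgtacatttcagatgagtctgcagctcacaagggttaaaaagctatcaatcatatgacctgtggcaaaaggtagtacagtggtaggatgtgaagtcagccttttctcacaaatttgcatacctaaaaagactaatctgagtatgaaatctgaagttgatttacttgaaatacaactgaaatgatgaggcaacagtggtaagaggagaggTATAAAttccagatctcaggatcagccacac
Serpinb11 (chr1:107362064-107362313, plus strand): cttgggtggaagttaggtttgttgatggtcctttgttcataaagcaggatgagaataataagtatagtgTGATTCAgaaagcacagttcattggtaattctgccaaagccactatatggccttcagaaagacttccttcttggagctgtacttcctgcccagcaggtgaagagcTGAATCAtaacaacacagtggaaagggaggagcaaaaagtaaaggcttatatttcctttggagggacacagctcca
Serpinb10 (chr1:107528753-107529002, plus strand): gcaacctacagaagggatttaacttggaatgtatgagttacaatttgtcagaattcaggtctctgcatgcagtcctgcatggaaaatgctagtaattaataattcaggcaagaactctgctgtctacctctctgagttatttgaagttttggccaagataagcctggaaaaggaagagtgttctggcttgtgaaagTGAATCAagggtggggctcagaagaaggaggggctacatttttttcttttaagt

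The sequences before Serpinb3a and Serpinb3c were near copies, with 203 of 216 aligned bases identical (94.0%). Serpinb3d had no such match, with 55 aligned bases against Serpinb3c, of which 36 were identical. These looser letters stood 2 times before Serpinb11, from bases -181 and -76, and 1 time before Serpinb10, from base -54, counted back from the start. They were not found in the windows of Serpinb3a, Serpinb3d and Serpinb3c. They were also found before Serpinb12, which fell (1 of its 2 annotated starts), and before Serpinb5, Serpinb7, Serpinb2 and Serpinb8, which were not called, so 7 of 10 genes of the run with a window held them. Of all 32851 windows of this length 6.75% held them, as did 9 of the 41 serpins with a window. For each motif a serpin gene was counted if any of its windows held a match, and these 41 genes had 49 windows. The shares of genes and of windows are therefore unlike units. The AP-1 consensus itself, TGAGTCA on either strand, was searched after the looser matches were seen and is contained in the looser letters. It was before Serpinb7 and Serpinb8, which were not called, so in 2 of the 10 genes of the run, and in 4.46% of all windows. The matches before Serpinb11 and Serpinb10 have another middle base and are not the consensus. TATAAA stood before 4 of the 10 genes of the run, before 8 of the 41 serpins and in 7.59% of all windows. Among genes that fell, it began at base -65 before Serpinb3a and -31 before Serpinb3c. Before Serpinb12, which also fell, it began at -220 or -201, by annotated start. Before Serpinb2, which was not called, it began at -29 or -116, by annotated start. Whether it acts as a TATA box at any of these places was not tested. Of the other letters searched on both strands, TGGGAA (the core bound by the Notch partner Rbpj) was in 1 of the 10 genes of the run and in 21.6% of all windows. TTCNNNGAA (STAT factors) was in 1 of the 10 and in 7.02% of all windows, and AACCNGTT (grainyhead factors) in 0 of the 10 and in 1.79%. Apart from the looser and strict AP-1 letters, no match of one motif overlapped a match of another in the windows of the run, and a match is not a shown binding site.

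On chromosome 13 the remaining clade B members gave 0 further calls. Serpinb1a, which inhibits neutrophil elastase and related leukocyte proteases, had 4.72, 4.45, 4.12 and 4.61 in the knockouts, against 4.23, 3.26, 4.52 and 6.65 in wild type. Wild-type array 4 was far above all others, and the difference was -0.19 (SE 0.56) with all arrays, 0.48 without that array and 0.73 without wild-type arrays 3 and 4 (adjusted p = 0.14). Serpinb1b, a close relative, did not overlap between the groups, with 3.26 to 3.69 in the knockouts and 2.98 to 3.22 in wild type, but lay below the array medians and was not called (difference 0.36, adjusted p = 0.080). Of the 48 serpins 10 had groups that did not overlap, 5 with the knockout above and 5 below, beside 18.1% of all genes (12.2% above and 5.86% below). Serpinb6c (5.79, 5.32, 5.38 and 5.37 in the knockouts, 5.89, 5.35, 5.31 and 5.45 in wild type) differed by -0.03. Serpinb9, an inhibitor of granzyme B, and its copies Serpinb9b, Serpinb9c, Serpinb9d and Serpinb9e differed by -0.01 to 0.26 and lay below the array median on all arrays.

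The clade A members, apart from Serpina3b, were not called. Serpina12, or vaspin, an adipose hormone whose human form inhibits the skin kallikrein KLK7, had 9.40, 9.26, 9.12 and 9.41 in the knockouts, against 9.59, 9.38, 9.40 and 9.02 in wild type. The groups overlapped, with a difference of -0.05 and a 95% interval of -0.34 to 0.24. Serpina11, a clade A member of unsettled role, did not overlap, at 3.999 to 4.182 in the knockouts and 4.183 to 4.48 in wild type, but was not called (-0.21, adjusted p = 0.22). Several plasma serpins lay below the array medians on all arrays. Of these, Serpina1c and Serpina1d, forms of alpha-1 antitrypsin, differed by 0.47 and 0.24, with adjusted p = 0.34 and 0.43, and Serpina3n, an acute phase antichymotrypsin, by -0.26. Serpina5 (protein C inhibitor), Serpina6 (corticosteroid-binding globulin), Serpina7 (thyroxine-binding globulin) and Serpina10 (protein Z-dependent inhibitor) had differences between -0.10 and 0.08. Antithrombin (Serpinc1) and heparin cofactor II (Serpind1), below the medians as well, had differences of -0.18 and -0.19.

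The largest falls in value outside clade B were in Serpinf1 and Serping1, and they rested largely on wild-type array 4. Serpinf1, or pigment epithelium-derived factor, a secreted inhibitor of vessel growth, had 3.85, 3.71, 3.93 and 3.85 in the knockouts, against 3.79, 4.07, 5.04 and 6.75 in wild type. Serping1, the C1 inhibitor of the complement cascade, had 3.37, 2.77, 2.48 and 3.22 in the knockouts, against 3.15, 3.33, 3.58 and 6.10 in wild type. Both differed by -1.08 and neither passed (adjusted p = 0.23 and 0.26). Without wild-type array 4 the difference was -0.47 for Serpinf1 and -0.39 for Serping1, and without wild-type array 3 alone it was -1.03 and -1.23. With both arrays left out it was -0.10 for Serpinf1 and -0.28 for Serping1.

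Serpinh1, the collagen chaperone Hsp47 of the endoplasmic reticulum, had 6.28, 6.20, 6.49 and 6.47 in the knockouts, against 5.87, 6.07, 6.39 and 7.21 in wild type. Its difference was -0.03 with all arrays and 0.39 (adjusted p = 0.14) without wild-type arrays 3 and 4, so its direction depended on them. The skeletal muscle and adipocyte marker lists, like Serpinf1, Serping1 and Serpinh1, were highest on wild-type array 4. Skeletal muscle markers (12 genes) averaged 3.78 to 4.03 in the knockouts and 3.91, 4.19, 5.36 and 7.62 on wild-type arrays 1 to 4. Adipocyte markers (9 genes) averaged 3.55 to 3.69 in the knockouts and 3.61, 3.99, 3.82 and 6.64 on wild-type arrays 1 to 4. The part of these lists in the serpin values was not tested. Serpinf2, the plasmin inhibitor alpha-2-antiplasmin and the neighbour of Serpinf1, had 4.59, 4.85, 4.77 and 4.42 in the knockouts, against 4.63, 5.07, 4.73 and 4.84 in wild type, with no high value on wild-type array 4. It differed by -0.16 (interval -0.45 to 0.13). Serpine3 differed by 0.15, and Serpini1 (neuroserpin) and Serpini2 by 0.05 and 0.07.

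**Figure D4:**
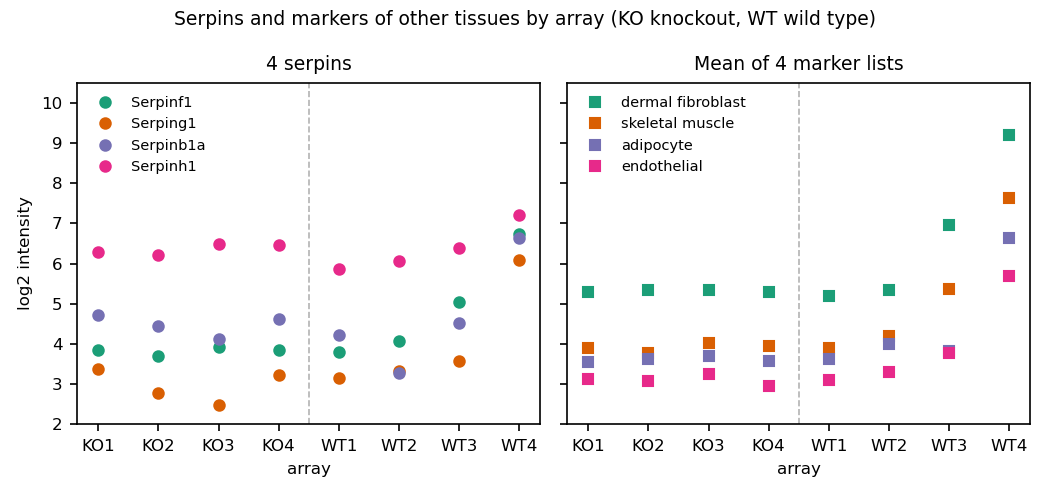
Log2 intensity by array (KO1 to KO4, then WT1 to WT4, divided by a dashed line) of Serpinf1, Serping1, Serpinb1a and Serpinh1 on the left, and the mean of 4 marker lists on the right. All 4 serpins and all 4 lists have their highest value on wild-type array 4, where the dermal fibroblast list reaches 9.19.

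The proteases that serpins meet in skin, and genes that act beside them, changed in part. Their counts stand beside the 6.41% higher and 2.34% lower of all genes. Of 20 serine proteases of the epidermis, mainly kallikreins and membrane-bound proteases, 4 rose and 1 fell, with a median of 0.21. The kallikreins Klk6 and Klk10 rose by 1.34 (SE 0.24, adjusted p = 0.0090) and 0.84 (SE 0.16, adjusted p = 0.013), and the membrane protease Tmprss4 fell by 1.11 (SE 0.15, adjusted p = 0.0038). Of 18 cathepsins, legumain and caspases 1 rose and 4 fell, with a median of -0.13. Ctsl, the lysosomal cathepsin L, rose by 0.60, while Ctsc, which activates leukocyte serine proteases, fell by 0.97 and Casp14, a caspase of the cornified layer, by 0.75. Of 16 genes of plasminogen activation and clotting, which include receptors and cofactors, 1 rose and 2 fell, with a median of -0.20. These were the thrombin receptor F2r (0.54) and, among the falls, tissue factor F3 (-0.995) and thrombomodulin, Thbd (-0.94). None of these called genes encodes a protease.

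Protease inhibitors that are not serpins, 27 genes with Spink5, Slpi, cystatins and Timps among them, gave 0 calls in limma, with 3 at an unadjusted p under 0.05 and a median of -0.07, beside 8.75% called over all genes. Spink5, an inhibitor of epidermal kallikreins, had the smallest p (difference 0.47, adjusted p = 0.18). Of 20 leukocyte and mast cell proteases, mostly serine proteases, 0 passed and 4 had an unadjusted p under 0.05. Tpsab1, a mast cell tryptase, had the smallest p (-1.50, adjusted p = 0.11). Its values were 3.49, 3.22, 3.76 and 3.23 in the knockouts, against 4.01, 3.87, 4.97 and 6.85 in wild type. Mast cell markers (8 genes) averaged 3.65 to 3.79 in the knockouts and 3.83, 3.80, 4.84 and 6.34 on wild-type arrays 1 to 4. Of these markers 1 was called higher in the knockout (beside 6.41% of all genes) and 0 lower (beside 2.34%). Of 10 macrophage markers 6 fell (median -1.07), beside 2.34% of all genes called lower. The macrophage means were 3.97 to 4.37 in the knockouts and 5.004 to 5.91 in wild type, which did not overlap. The part of these markers in the values of Ctsc, the leukocyte proteases and serpins that macrophages express was not tested. Of 17 transcription factors of keratinocytes and genes near the chromosome 1 run, 3 rose, beside 6.41% of all genes. The largest rises were in Bcl2, given above, and the factor Ovol1 (0.59, adjusted p = 0.021).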

How the data were processed

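The authors' deposited intensity values, 1 for each probe set on each array, were made by RMA (robust multi-array average), as named in the submitters' processing notes. No version, setting or build is given in the sources used here. The deposited values ran from 0.817 to 11173, were read as linear and were log2-transformed with no pseudocount. Of 35519 probe sets, 21780 had 1 gene symbol in the platform annotation, 1605 several and 12134 none, which gave 19935 genes with no dim-gene filter. RefSeq gave all 48 serpins a position by Entrez identifier, and 41 had a promoter sequence.

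The genotypes were compared in limma 3.58.1 under R 4.3.3 (lmFit, eBayes, no covariate), and p-values were adjusted by Benjamini-Hochberg across the 19935 genes. The fit was tested on simulated data. Adam10 also had an exact permutation test (scipy 1.17.1), and promoters were aligned with Biopython 1.88.

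The members, gene lists and tests were chosen with earlier results of these data known. Full values are given for serpins that passed, the 3 uncalled members of highest mean in clade B and in the other clades, and the member nearest the threshold. Serpinb8, Serpinb1a, Serpinb6c, Serpinf1, Serping1 and ranges of other members were added after their values were seen, and the flanking genes were named for position. Each list gives its 2 largest called rises and falls, or its smallest p. Alternatives were quantile, cyclic loess and median normalization, a dim-gene filter, averaging a gene's probe sets, log2 of the value plus 16, a trended and robust prior, array weights, a threshold of 0.10, and leaving out each array or wild-type arrays 3 and 4. Covariates for suprabasal keratinocyte and Y-linked genes (Eif2s3y, Kdm5d, Uty) were chosen after seeing the data.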

Additional observations from a re-analysis of the deposited data

Results flagged for a closer look

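Of 96 groups of 4 arrays (48 serpins in 2 genotypes), 9 held 1 array whose gap to the nearest other array was too large a part of the range of the group by Dixon's test at the 95% level. About 1 in 20 groups does so by chance. In knockouts, array 4 was high for Serpinb3a (6.24, others 5.02 to 5.20), Serpinb3c (7.94, others 6.44 to 6.67) and Serpinb9 (2.88, others 1.64 to 1.81), and low for Serpinb6a (7.90, others 8.26 to 8.29). Knockout array 1 was high for Serpinb6c (5.79, others 5.32 to 5.38) and knockout array 2 low for Serpina6 (1.44, others 1.56 to 1.59). In wild type, array 4 was high for Serping1 (6.10, others 3.15 to 3.58), array 2 for Serpina5 (2.38, others 1.89 to 1.94) and array 1 for Serpinb1b (3.22, others 2.98 to 3.02). Without knockout array 4 all 8 serpin calls remained.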

How the results depend on the processing

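Serpinb11, Serpinb10, Serpinb3a and Serpinb3d kept their direction and their call under every alternative they entered (highest adjusted p = 0.027, for Serpinb3a). On the scale of log2 of the value plus 16, Serpinb11 (1.49), Serpinb3d (-0.80) and Serpina3b (0.38) had much smaller differences and stayed called. Leaving out each array in turn gave 2 to 4 clade B rises, 2 to 4 clade B falls, 0 to 1 rises and 0 to 1 falls in the other clades, 587 to 1997 genes over the whole table, and medians of -0.01 to 0.07 for clade B and -0.13 to -0.0119 for the other clades. The count of all genes was 3621 with array weights, 925 without wild-type arrays 3 and 4, 2812 with the keratinocyte covariate and 2958 at a threshold of 0.10. With the Y-linked gene covariate 1384 genes passed, and all 8 serpins stayed called. Serpinb3c then differed by -1.86 (SE 0.25) and Serpinb3a by -2.23 (SE 0.26). Clade B had 5 rises with array weights, with the keratinocyte covariate and at a threshold of 0.10, and the other clades had 1 fall with array weights. Restricting to genes at or above the median level left 16 serpins, moved the clade B median to 0.12 and gave 0 rises in the other clades, because Serpina3b and Serpinb3d were not tested there. The causes of the other changes were not tested. Without knockout array 2, 4 of the 8 serpin calls were left, and without knockout array 3 or wild-type array 3, 5 were.

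Some uncalled members turned direction. Leaving out each array in turn gave -0.153 to 0.0475 for Serpinb5, -0.159 to 0.0309 for Serpina12, -0.653 to 0.475 for Serpinb1a and -0.197 to 0.249 for Serpinh1. Serpinb5 was 0.00094 after median centring. Serpinb1a was 0.116 with array weights and 0.732 without wild-type arrays 3 and 4. Serpinh1 was 0.0199 after median centring, 0.0346 with array weights, 0.389 without wild-type arrays 3 and 4 and 0.0295 with the Y-linked gene covariate.

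No paired analysis was possible because the titles give the knockout and wild-type samples no shared number. Precision is limited by 4 arrays per genotype, and 25 of the 48 serpins had signal below the array median throughout.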

Other observations

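Serpin genes also appear on 5 probe sets that carry several symbols and so stand for no single member. The 2 probe sets shared by 5 Serpina1 genes had differences of -0.30 and -0.64 (limma adjusted p = 0.51 and 0.29 over all 35519 probe sets). Both were highest on wild-type array 2, at 3.25 against 2.05 to 2.38 on the other arrays and at 5.34 against 3.57 to 4.15. Markers of liver and blood plasma (9 genes) were also highest there, with a mean of 4.18 against 2.62 to 3.01 on the other arrays, while the single-symbol probe sets Serpina1c and Serpina1d read 1.88 and 2.59 on that array. The 3 probe sets shared by 4 Serpinb9 genes had differences of -0.06 to -0.14.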
